A study of Mus musculus with 32 samples.

Results

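Vdac1, Vdac2, Vdac3, Slc25a4, Slc25a5, Ppif, Mcu, Ucp2 and Opa1 encode channels, carriers and shaping proteins of the mitochondrial membranes. They were taken from the table by gene symbol and are 9 of its 24538 genes. The list was drawn up with earlier results of these data known, so it was not chosen blind to them. All 9 had a mean normalized value above the floor for testing and were among the 11562 genes tested. RNA was measured by sequencing in S49 cells, a mouse T-cell lymphoma line that dies by apoptosis when given glucocorticoid. S49 (Neo) cells stably carried the G418 (neomycin) resistance gene, and S49 (Bcl-2) cells carried the same gene together with the Bcl-2 proto-oncogene, which blocks apoptosis at the mitochondrion. Both lines were given the synthetic glucocorticoid dexamethasone (dex, 250 nM) or its vehicle (control), and RNA was taken after 24 h or 48 h, which makes 8 groups of 4 libraries. Whether a line is 1 clone is not given in the sources used here, nor is it said that replicates came from separate cultures. The p-values therefore measure the spread between these samples, which may be technical.

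The mitochondrial outer membrane is crossed by voltage-dependent anion channels (VDACs), through which ATP, ADP and other metabolites pass. The inner membrane is tight, so that the respiratory chain can hold a potential across it, and adenine nucleotide translocators, uncoupling proteins and the calcium uniporter carry selected solutes over it. Opening of a large pore, the permeability transition, collapses this potential, and cyclophilin D, the product of Ppif, promotes that opening. Anti-apoptotic Bcl-2 acts at the outer membrane, where Bcl-2 family proteins are known to interact with VDACs.

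Values are normalized log2 values per gene and library as deposited, so a change of 1 is a doubling on that scale, and the depth behind a value is unknown. Values of genes at the low end are nearly constant, so the scale may shrink changes, and fold changes and percentages here may understate them. The row of the mouse gene Bcl2 followed the labels. It lay between 10.48 and 11.45 in the 16 S49 (Bcl-2) libraries and between 7.70 and 8.62 in the 16 S49 (Neo) libraries. The authors stained Bcl-2 protein with an anti-human antibody. How far this row counts the introduced gene and how far the cells' own Bcl2 was not tested. Of 13 T-cell markers listed, 12 were in the table and 11 were above the floor, among them Cd3e at 12.86 and Thy1 at 14.98, while Cd4 was below it at 3.19. Markers of B cells above the floor numbered 1 of 6, and those of macrophages and granulocytes 3 of 8. For stromal, endothelial and epithelial cells they numbered 2 of 8. Those above it were Blnk (5.45), Lyz2 (5.47), Cd68 (7.20), Itgam (9.49), Pdgfrb (3.93) and Pecam1 (9.68). Among those below it were Csf1r at -1.15 and Epcam at -2.36. A library of the S49 (Bcl-2) group with 24 h of dex, replicate 3, stood apart: its values differed from those of its group with an SD across genes of 0.77, against 0.31 or less for every other library. It also entered the pooled spread of every comparison, so that without it the share of all genes called rose, from 50.5% to 66.8% at 24 h in S49 (Neo) cells for example. In bulk RNA, fewer cells of a type and less RNA per cell cannot be told apart.

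The genes lie on 7 chromosomes of the mouse genome mm10. Vdac1 spans chr11:52360860-52389397, Vdac2 chr14:21825238-21845879, Vdac3 chr8:22577075-22593813, Slc25a4 chr8:46206797-46211284, Slc25a5 chrX:36795651-36798807, Ppif chr14:25694154-25700468, Mcu chr10:59446984-59616692, Ucp2 chr7:100493337-100502020 and Opa1 chr16:29579334-29654884. Per kilobase of merged exon and on the log2 scale, the mean level over 32 libraries was highest for Slc25a5 at 14.58, followed by Slc25a4 at 12.66, Vdac1 at 12.63, Ucp2 at 12.00, Vdac2 at 11.45, Vdac3 at 10.49, Opa1 at 9.62, Ppif at 9.32 and Mcu at 7.31. The pore-forming subunit of the calcium uniporter was thus the least abundant of the 9 transcripts, and the adenine nucleotide translocator Slc25a5 the most abundant. Both also held these places before division by length (10.11 and 15.30). The order between them depends on the length used, which joins the exons of all annotated transcripts. For Ucp2 this length was 6989 bases of a gene of 8684, and its undivided mean of 14.81 was below that of Slc25a5 only. Exons of Ppif share 921 bases with the antisense gene Ppifos, those of Ucp2 share 305 with Dnajb13 and those of Vdac2 share 25 with Comtd1, in each case on the opposite strand. Whether counting used strand is not given in the sources used here, so reads in these stretches cannot be assigned with certainty. Pseudogenes with at least 95% identity over at least 150 bases were found for Vdac2 (1), Vdac3 (2) and Slc25a5 (2), none of them a row of the table, so the values of these genes are less certain than those of the others.

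The stretch just upstream of the first annotated base is shown for 3 genes that fell with dex and for Ucp2, which rose at 24 h. Their promoters can thus be read beside their values. The 3 that fell are those with a motif match in this stretch. Mcu, which also fell, and Slc25a5, which was lower in S49 (Bcl-2) cells as deposited, had no match in theirs and are not shown. Slc25a4 had none either and is not shown, but its stretch was only 28 bases long. Because the genes that fell were picked by a match, the lines cannot show whether a match goes with a fall. RefSeq (GRCm38.p6) promoter windows matched 7 of the 9 genes, not Vdac2 and Vdac3. Each line runs 5′ to 3′ on the strand of the gene, and capitals mark a match to an ETS motif in Vdac1 and Ppif or to an NRF1 motif in Opa1.
Vdac1 (chr11:52360601-52360850, + strand): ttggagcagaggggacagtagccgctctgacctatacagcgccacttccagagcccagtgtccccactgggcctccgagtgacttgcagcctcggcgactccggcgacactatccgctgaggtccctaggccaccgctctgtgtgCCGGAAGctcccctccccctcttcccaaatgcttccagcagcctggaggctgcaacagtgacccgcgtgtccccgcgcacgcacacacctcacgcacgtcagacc
Ppif (chr14:25693920-25694153, + strand): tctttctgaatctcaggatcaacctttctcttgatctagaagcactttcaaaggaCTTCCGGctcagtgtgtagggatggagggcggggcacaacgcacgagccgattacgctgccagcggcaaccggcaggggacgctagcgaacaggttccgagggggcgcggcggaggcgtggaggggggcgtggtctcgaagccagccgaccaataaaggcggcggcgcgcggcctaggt
Opa1 (chr16:29579084-29579333, + strand): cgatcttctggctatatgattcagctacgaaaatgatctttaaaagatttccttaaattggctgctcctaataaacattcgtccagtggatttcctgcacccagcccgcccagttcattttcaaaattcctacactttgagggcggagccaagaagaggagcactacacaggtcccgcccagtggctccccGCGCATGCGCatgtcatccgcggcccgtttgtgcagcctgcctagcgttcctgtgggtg
Ucp2 (chr7:100493108-100493336, + strand): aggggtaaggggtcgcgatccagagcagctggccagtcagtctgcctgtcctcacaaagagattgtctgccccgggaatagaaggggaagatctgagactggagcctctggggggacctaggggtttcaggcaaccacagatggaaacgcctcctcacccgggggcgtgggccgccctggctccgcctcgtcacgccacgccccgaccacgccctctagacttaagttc

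Motifs were searched on both strands of the 7 windows. The glucocorticoid response element, AGAACA and TGTTCT with a gap of 3 bases, was in 0 of 7 windows and in 0.00913% of 32851 RefSeq promoter windows of the same length. Its half-site AGAACA, which is part of that motif, was in 0 of 7 and in 19.0% of all windows, and the E-box CACGTG in 0 of 7 and in 7.15%. The ETS motif CCGGAAG stood in the windows of Vdac1, Slc25a4 and Ppif, at -105, -130 and -195 from the RefSeq start, against 8.86% of all windows. By the GENCODE annotation the match in Slc25a4 lies inside the gene, downstream of its first annotated base. Those in Vdac1 and Ppif lie upstream of it. The NRF1 motif, whose letters are the capitals in the Opa1 line, stood at -59 in Opa1, against 0.971%. A match is a description of letters and not a site, and no match says only that these letters are not in this window.

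Treatment of S49 (Bcl-2) cells with dex for 24 h resulted in lower values of 8 of the 9 genes and a higher value of Ucp2. All 9 had an adjusted p under 0.05 (limma, Benjamini-Hochberg over all genes tested), as did 67.6% of all genes. The 8 falls compare with 35.1% of all genes lower and the 1 rise with 32.5% higher. The median change was -0.55 for the 9 genes and -0.04 for all genes. In 7 of the 8 genes that fell, every dex library was below every control library, as in 26.8% of all genes, and Ucp2 was above without overlap, as in 26.3%. After 48 h, 7 of 9 genes fell and Slc25a4 rose, 8 calls where 69.1% of all genes were called, 35.2% lower and 33.9% higher. The median change was -0.41 against -0.01 for all genes. Here 7 genes lay lower without overlap between the groups, as in 37.3% of all genes, and 1 lay higher, as in 35.7%. These counts depend on the scaling of the libraries. After quantile normalization Slc25a4 at 24 h and Slc25a5 and Ucp2 at 48 h changed sign, and Slc25a5 was called at neither time. The call of Slc25a4 at 24 h was also lost in most fits that left out 1 library of these groups.

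Of the 9 genes, 5 fell with 24 h of dex in S49 (Neo) cells and 5 with 48 h. Calls numbered 6 at 24 h, where 50.5% of all genes were called, with 25.5% lower and 25% higher. At 48 h they numbered 7, where 55.3% of all genes were called, with 28% lower and 27.3% higher. The median change was -0.25 at 24 h and -0.37 at 48 h, against -0.02 and -0.00 for all genes. The dex libraries lay below the controls without overlap in 7 genes at 24 h and 6 at 48 h, as in 33.3% and 31.3% of all genes, and above in 1 and 2, as in 30.2% and 31.2%. Without replicate 3 of the S49 (Bcl-2) 24 h dex group, the calls were 9 at both times in S49 (Bcl-2) cells and 8 and 7 in S49 (Neo) cells, where 74.9%, 81.1%, 66.8% and 70.8% of all genes were called. The plot of values by library shows each gene in the 8 groups, and the plot of changes with dex shows both lines side by side.

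**Figure D1:**
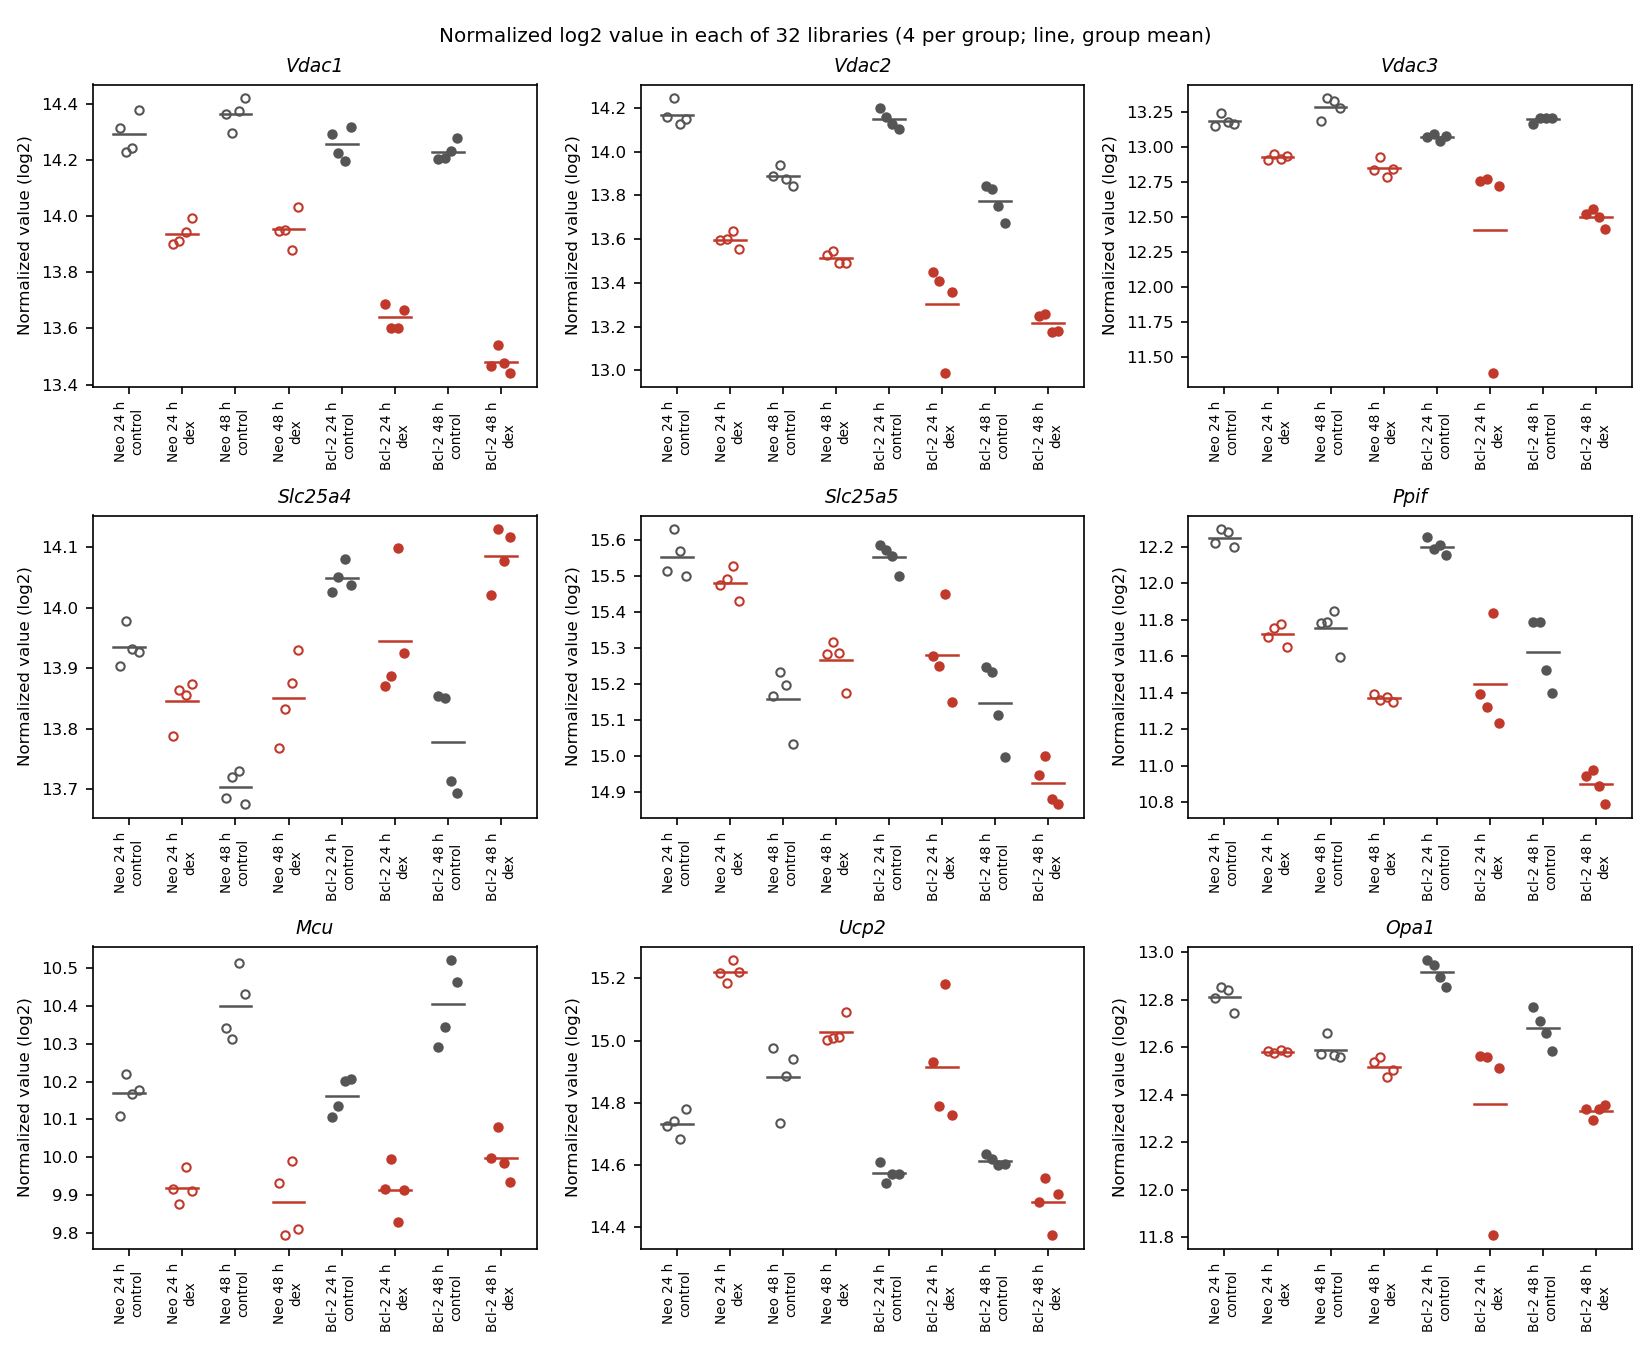
Normalized log2 value (y axis) of each of the 9 genes in the 32 libraries, by group (x axis); open points are S49 (Neo), filled points S49 (Bcl-2), grey control, red dex, and lines are group means of 4 libraries. Vdac1 in S49 (Bcl-2) cells lay between 13.44 and 13.69 with dex and between 14.19 and 14.32 in controls, and 1 library at 24 h of dex stood far below the rest for Vdac3 (11.39) and Opa1 (11.81).

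**Figure D2:**
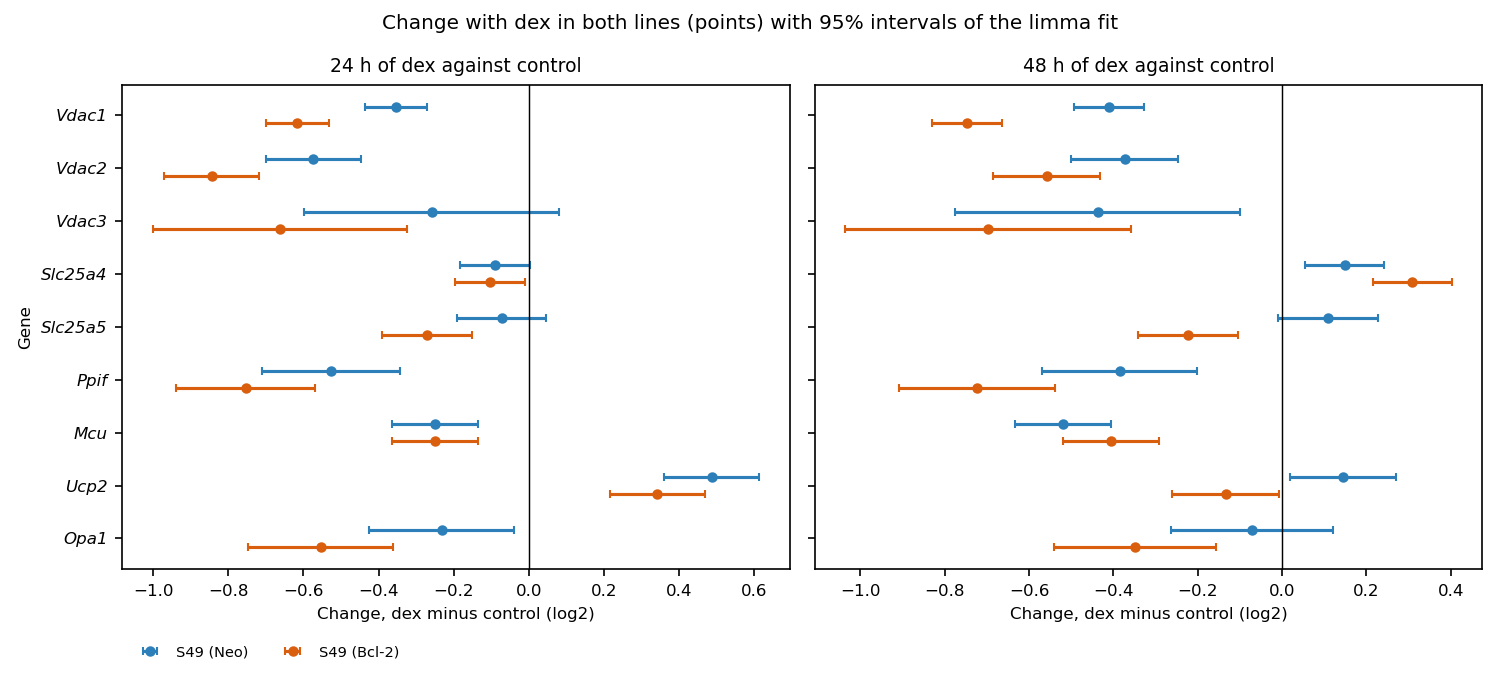
Change with dex, dex minus control on the log2 scale (x axis), for each gene (y axis) after 24 h and 48 h; points are limma estimates with 95% intervals, blue for S49 (Neo) and orange for S49 (Bcl-2). Most points lie left of 0, Ucp2 lies right of it at 24 h (0.34 and 0.49), and Slc25a4 lies right of it at 48 h (0.31 and 0.15); under quantile normalization Slc25a4 at 24 h and Slc25a5 and Ucp2 at 48 h in S49 (Bcl-2) cells and Slc25a5 at 24 h in S49 (Neo) cells change sign.

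Vdac1, the most abundant VDAC per kilobase in these cells, fell at both times in both lines. In S49 (Bcl-2) cells it lay at 14.20, 14.21, 14.23 and 14.28 in the 48 h controls and at 13.47, 13.54, 13.48 and 13.44 after 48 h of dex. The same comparison in S49 (Neo) cells gave 14.36, 14.30, 14.37 and 14.42 in the controls and 13.95, 13.95, 13.88 and 14.03 with dex. The S49 (Bcl-2) libraries with 48 h of dex were thus the lowest of the 32 for this gene, followed by those of the same line with 24 h of dex. The change at 48 h was -0.75 (SE 0.04, adjusted p = 1.75e-15, limma) in S49 (Bcl-2) cells (-40.4% on the deposited scale) and -0.41 (SE 0.04, adjusted p = 1.09e-09) in S49 (Neo) cells. At 24 h the changes were -0.62 and -0.35.

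In the paper, 48 h of dex cost S49 (Neo) cells viability and left S49 (Bcl-2) cells viable. What part this had in differences between the lines, here and below, was not tested. The difference between the lines in the change of Vdac1 was itself tested. It was -0.26 at 24 h (95% interval -0.38 to -0.15, adjusted p = 0.00181, limma) and -0.34 at 48 h (-0.45 to -0.22, adjusted p = 2.89e-05), with the larger fall in S49 (Bcl-2) cells. Quantile normalization of the libraries ended both calls, with differences of -0.12 (adjusted p = 0.257) and -0.12 (adjusted p = 0.220). At 48 h the controls of S49 (Bcl-2) cells were below those of S49 (Neo) cells (-0.13, adjusted p = 0.0142, limma). That call was lost without S49 (Neo) 48 h control replicate 4 (-0.11, adjusted p = 0.0585) and after quantile normalization (adjusted p = 0.0602).

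Vdac2, the isoform known to hold the pro-apoptotic protein Bak at the outer membrane, had its lowest values in the S49 (Bcl-2) cells given dex. After 24 h it lay at 14.20, 14.16, 14.12 and 14.11 in controls and at 13.45, 13.41, 12.99 and 13.36 with dex, and after 48 h at 13.84, 13.83, 13.75 and 13.67 in controls and 13.25, 13.26, 13.18 and 13.18 with dex. No dex library reached the controls of its own time, and the controls themselves were lower at 48 h. The change with dex was -0.84 at 24 h (SE 0.06, adjusted p = 2.41e-12, limma) and -0.56 at 48 h (adjusted p = 5.96e-09) in S49 (Bcl-2) cells, and -0.57 and -0.37 in S49 (Neo) cells. The fall in S49 (Bcl-2) cells was thus smaller at 48 h, by 0.29 (adjusted p = 0.0109), or by 0.18 (adjusted p = 0.00363) without the 24 h dex replicate 3, and this call was lost in the fit of the 16 libraries of that line (adjusted p = 0.0827). The fall at 24 h was larger in S49 (Bcl-2) than in S49 (Neo) cells, by -0.27 (adjusted p = 0.0296), or -0.17 (adjusted p = 0.0123) without that library and -0.14 (adjusted p = 0.255) after quantile normalization. The call at 24 h was also lost in 5 of 16 fits that left out 1 library in turn, with adjusted p up to 0.0629.

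Vdac3, the least abundant VDAC per kilobase, shows most clearly what 1 library can do. At 24 h in S49 (Bcl-2) cells it lay at 13.07, 13.09, 13.05 and 13.08 in controls and at 12.76, 12.77, 11.39 and 12.72 with dex, where the low value belonged to replicate 3. The other dex libraries differed from each other by less than the gap that separated them from the controls. With all libraries the change was -0.66 (SE 0.16, adjusted p = 0.000926, limma), and without replicate 3 it was -0.32 (SE 0.04, adjusted p = 4.11e-09). At 48 h the change was -0.70 (adjusted p = 0.000481) in S49 (Bcl-2) cells and -0.44 (adjusted p = 0.0257) in S49 (Neo) cells. The S49 (Neo) call at 48 h was lost without control replicate 2 (adjusted p = 0.0556), control replicate 3 (0.0521) or dex replicate 3 (0.0575).

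At 24 h in S49 (Neo) cells Vdac3 lay at 13.15, 13.25, 13.18 and 13.17 in controls and at 12.91, 12.96, 12.92 and 12.93 with dex. These groups did not overlap, yet the change of -0.26 had an adjusted p of 0.201 in the limma fit over 32 libraries. In the fit of the 16 S49 (Neo) libraries alone the same change had an adjusted p of 5.72e-06, and without the S49 (Bcl-2) replicate 3 one of 8.02e-08. Between the lines the change differed by -0.40 at 24 h (95% interval -0.88 to 0.07) and -0.26 at 48 h (-0.74 to 0.22), neither of them called. Without replicate 3 the difference was -0.06 at 24 h (adjusted p = 0.330) and, still -0.26 but with an SE of 0.05, called at 48 h (adjusted p = 2.93e-05). Within S49 (Bcl-2) cells the fall at 48 h exceeded that at 24 h, by -0.38 (adjusted p = 2.85e-07) without replicate 3, against -0.04 (adjusted p = 0.918) with it.

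Slc25a4 and Slc25a5 encode adenine nucleotide translocators (ANT), which exchange ADP for ATP across the inner membrane. Slc25a4 was higher with 48 h of dex than in the 48 h controls in both lines. Its S49 (Bcl-2) values were 13.85, 13.85, 13.71 and 13.69 in the 48 h controls and 14.02, 14.13, 14.08 and 14.12 with dex. Its S49 (Neo) values were 13.69, 13.72, 13.73 and 13.68 in the controls and 13.77, 13.83, 13.88 and 13.93 with dex. Neither pair of groups overlapped, and the gap was wider in S49 (Bcl-2) cells. The rise was 0.31 (SE 0.05, adjusted p = 9.05e-07, limma) in S49 (Bcl-2) cells and 0.15 (adjusted p = 0.00686) in S49 (Neo) cells. The rises differed between the lines by 0.16 with an adjusted p of 0.0483, and the call was lost in 12 of the fits that left out 1 library in turn, with adjusted p up to 0.118.

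At 24 h the change of Slc25a4 in S49 (Bcl-2) cells was -0.10 (adjusted p = 0.0476, limma), and the direction turned to 0.10 (adjusted p = 0.0499) after quantile normalization. The 24 h dex libraries were at 13.87, 13.89, 14.10 and 13.93 against 14.03, 14.05, 14.08 and 14.04 in controls, so replicate 3 was the only dex library above the controls. Without it the change was -0.15 (adjusted p = 0.000705), whereas the call was lost in each of the 7 other fits that left out 1 library of these groups, with adjusted p up to 0.155. For S49 (Neo) cells the change at 24 h was -0.09 (95% interval -0.18 to 0.00, adjusted p = 0.104), and it was called without S49 (Bcl-2) 24 h dex replicate 3 (adjusted p = 0.0276). From 24 h to 48 h the change with dex thus moved up, by 0.41 (adjusted p = 1.19e-05) in S49 (Bcl-2) cells and by 0.24 (adjusted p = 0.00981) in S49 (Neo) cells, the latter 0.14 (adjusted p = 0.147) after quantile normalization. The controls fell over that time, with group means from 14.05 to 13.78 in S49 (Bcl-2) and from 13.93 to 13.70 in S49 (Neo) cells. The dex means went from 13.95 to 14.09 in S49 (Bcl-2) cells. In S49 (Neo) cells they stayed in place, at 13.845 and 13.851, so the move there came with the controls.

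Slc25a5, the more abundant translocator, was lower with dex in S49 (Bcl-2) cells as deposited, a difference that quantile normalization of the libraries removed. At 48 h it lay at 15.25, 15.23, 15.11 and 15.00 in the 48 h controls and at 14.95, 15.00, 14.88 and 14.87 with dex in S49 (Bcl-2) cells. The S49 (Neo) libraries were at 15.17, 15.23, 15.20 and 15.03 in controls and 15.28, 15.32, 15.29 and 15.18 with dex. The groups overlapped in both lines. The change was -0.22 (SE 0.06, adjusted p = 0.00122, limma) in S49 (Bcl-2) cells, which turned to 0.03 (adjusted p = 0.574) after quantile normalization, and 0.11 (95% interval -0.01 to 0.23, adjusted p = 0.116) in S49 (Neo) cells, which was called with the replicate block (adjusted p = 0.0319). These changes differed between the lines by -0.33 (-0.50 to -0.16, adjusted p = 0.00185), and -0.02 (adjusted p = 0.880) after quantile normalization. At 24 h the change was -0.27 (adjusted p = 0.000183) in S49 (Bcl-2) cells, -0.04 (adjusted p = 0.472) after quantile normalization, and -0.07 (adjusted p = 0.319) in S49 (Neo) cells, where quantile normalization gave 0.02. The lines differed at 24 h by -0.20 (95% interval -0.37 to -0.03, adjusted p = 0.0871), which was called without S49 (Bcl-2) dex replicate 3 (-0.25, adjusted p = 0.00749), with array weights (-0.25, adjusted p = 0.000508) and with the replicate number as a block (adjusted p = 0.0170).

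Ppif, which encodes cyclophilin D, the matrix isomerase that promotes the permeability transition, fell at both times in both lines. S49 (Bcl-2) cells had 12.25, 12.19, 12.21 and 12.15 in the 24 h controls and 11.39, 11.32, 11.84 and 11.23 with dex, and 11.79, 11.78, 11.53 and 11.40 in the 48 h controls and 10.95, 10.98, 10.89 and 10.79 with dex. The S49 (Neo) libraries at 48 h were at 11.78, 11.79, 11.85 and 11.60 in controls and at 11.39, 11.36, 11.37 and 11.35 with dex. The 4 libraries of S49 (Bcl-2) cells with 48 h of dex were the lowest of the 32. The change was -0.75 at 24 h (SE 0.09, adjusted p = 3.03e-08, limma) and -0.72 at 48 h (adjusted p = 4.47e-08) in S49 (Bcl-2) cells, and -0.53 (adjusted p = 1.54e-05) and -0.39 (adjusted p = 0.000583) in S49 (Neo) cells. The lines differed by -0.34 at 48 h (95% interval -0.60 to -0.08, adjusted p = 0.0339), a call lost in 6 of the fits that left out 1 library (adjusted p up to 0.0867) and after quantile normalization (-0.28, adjusted p = 0.135). At 24 h it was -0.23 (adjusted p = 0.211), and -0.36 (adjusted p = 0.00371) without replicate 3, which held the highest dex value. The overlapping antisense gene Ppifos had a mean of 7.07 against 11.66 for Ppif and changed by -0.38 at 24 h (adjusted p = 0.00518) and 0.10 at 48 h (adjusted p = 0.459) in S49 (Bcl-2) cells; its part in the Ppif values was not tested.

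Beside Ppif, 10 genes long discussed as parts or partners of the permeability transition were tested. With dex, 6 fell and 2 rose at 24 h and 8 fell and 2 rose at 48 h in S49 (Bcl-2) cells, and in S49 (Neo) cells 6 fell and 1 rose at 24 h and 4 fell and 1 rose at 48 h. Of all genes 35.1%, 35.2%, 25.5% and 28% were called lower and 32.5%, 33.9%, 25% and 27.3% higher in that order, so that the count that fell is above these shares in the first 3 and less so in the last. Their median change was -0.20, -0.24, -0.21 and -0.14 in that order, against -0.04, -0.01, -0.02 and -0.00 for all genes. After quantile normalization 3, 5, 4 and 5 fell, where 34.7%, 34.6%, 27% and 28.5% of all genes were lower, with medians of -0.03, -0.15, -0.10 and -0.19. Hk2, the hexokinase that docks on VDAC at the mitochondrial surface, fell at 48 h, with changes of -1.58 in S49 (Bcl-2) cells (SE 0.14, adjusted p = 3.88e-11, limma) and -1.19 in S49 (Neo) cells (adjusted p = 1.84e-08). Atp5b, the catalytic beta subunit of ATP synthase, changed by -0.62 and -0.25 at that time. Tspo, the outer membrane translocator protein, rose at 24 h by 1.36 in S49 (Bcl-2) cells and by 0.77 in S49 (Neo) cells. Ckmt1, the mitochondrial creatine kinase, rose in S49 (Bcl-2) cells by 0.72 at 24 h and 1.41 at 48 h and fell in S49 (Neo) cells, with changes of -0.36 and -0.46. Its changes differed between the lines by 1.08 (adjusted p = 0.00011) and 1.87 (adjusted p = 4.06e-09), although its mean in the 48 h controls was only 4.26 and 3.66. Slc25a3, the phosphate carrier, rose by 0.29 at 48 h in S49 (Neo) cells (adjusted p = 3.28e-05) and changed by -0.13 in S49 (Bcl-2) cells (adjusted p = 0.0304), a sign that turned after quantile normalization (0.12, adjusted p = 0.0195). Its change differed between the lines by -0.42 (adjusted p = 5.27e-05), or by -0.11 (adjusted p = 0.191) after quantile normalization.

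Mcu, the pore-forming subunit of the uniporter that takes calcium into the matrix, fell at both times in both lines. S49 (Bcl-2) cells had 10.29, 10.34, 10.52 and 10.46 in the 48 h controls and 10.00, 10.08, 9.98 and 9.93 with dex. S49 (Neo) cells had 10.34, 10.31, 10.51 and 10.43 in controls and 9.93, 9.79, 9.99 and 9.81 with dex. Control and dex libraries were apart in each line, and the same groups of both lines covered nearly the same range. The change was -0.25 at 24 h in S49 (Bcl-2) cells (SE 0.06, adjusted p = 0.000274, limma) and -0.25 in S49 (Neo) cells (adjusted p = 0.000411), and -0.41 (adjusted p = 2.35e-07) and -0.52 (adjusted p = 4.80e-09) at 48 h. The fall was larger at 48 h than at 24 h in S49 (Neo) cells, by -0.27 (adjusted p = 0.0157). For S49 (Bcl-2) cells this difference was -0.16 (adjusted p = 0.116), and -0.18 (adjusted p = 0.0422) without the 24 h dex replicate 3. The controls rose over that time, with group means from 10.17 to 10.40 in S49 (Neo) and from 10.16 to 10.41 in S49 (Bcl-2) cells. The dex means moved less, from 9.92 to 9.88 in S49 (Neo) and from 9.91 to 10.00 in S49 (Bcl-2) cells. The lines differed by -0.00 at 24 h (95% interval -0.16 to 0.16), with a sign that turned under quantile normalization (0.04) and array weights (0.06), and by 0.11 at 48 h (-0.05 to 0.27).

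Of 10 other genes of the uniporter complex and of mitochondrial calcium exchange, 2 rose and 3 fell at 24 h and 1 rose and 4 fell at 48 h in S49 (Bcl-2) cells. The counts for S49 (Neo) cells were 2 that rose and 3 that fell at 24 h, and 3 that rose and 2 that fell at 48 h. These counts are at or near the shares of all genes called lower (35.1%, 35.2%, 25.5% and 28%), and at or below, or for S49 (Neo) cells at 48 h near, those called higher (32.5%, 33.9%, 25% and 27.3%), and nothing is read from them. The median change was -0.04 and -0.12 in S49 (Bcl-2) cells and -0.01 and -0.09 in S49 (Neo) cells, at 24 h and 48 h, against -0.04, -0.01, -0.02 and -0.00 for all genes, and quantile normalization turned the first to 0.02. Mcub, the dominant-negative paralogue of Mcu, rose at 24 h by 0.95 in S49 (Bcl-2) cells and 1.01 in S49 (Neo) cells. At 48 h it fell in S49 (Bcl-2) cells (-0.50, adjusted p = 0.000244, limma) and rose by 0.31 in S49 (Neo) cells (adjusted p = 0.0185), a difference between the lines of -0.81 (adjusted p = 0.000143). The Mcub controls rose with time, by 1.06 in S49 (Bcl-2) and 0.93 in S49 (Neo) cells. Slc8b1, the sodium-calcium exchanger that carries calcium out of the matrix, rose with dex at both times, by 1.24 and 1.40 in S49 (Bcl-2) cells and by 0.68 and 0.41 in S49 (Neo) cells. Its rise was larger in S49 (Bcl-2) cells by 0.57 at 24 h (adjusted p = 0.00781, or 0.0753 after quantile normalization) and 1.00 at 48 h (adjusted p = 4.52e-06). Its controls were lower in S49 (Bcl-2) cells, by -0.80 and -0.57. Ghitm, also known as Tmbim5, an inner membrane protein, fell at 48 h in both lines (-0.61 and -0.73).

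**Figure D3:**
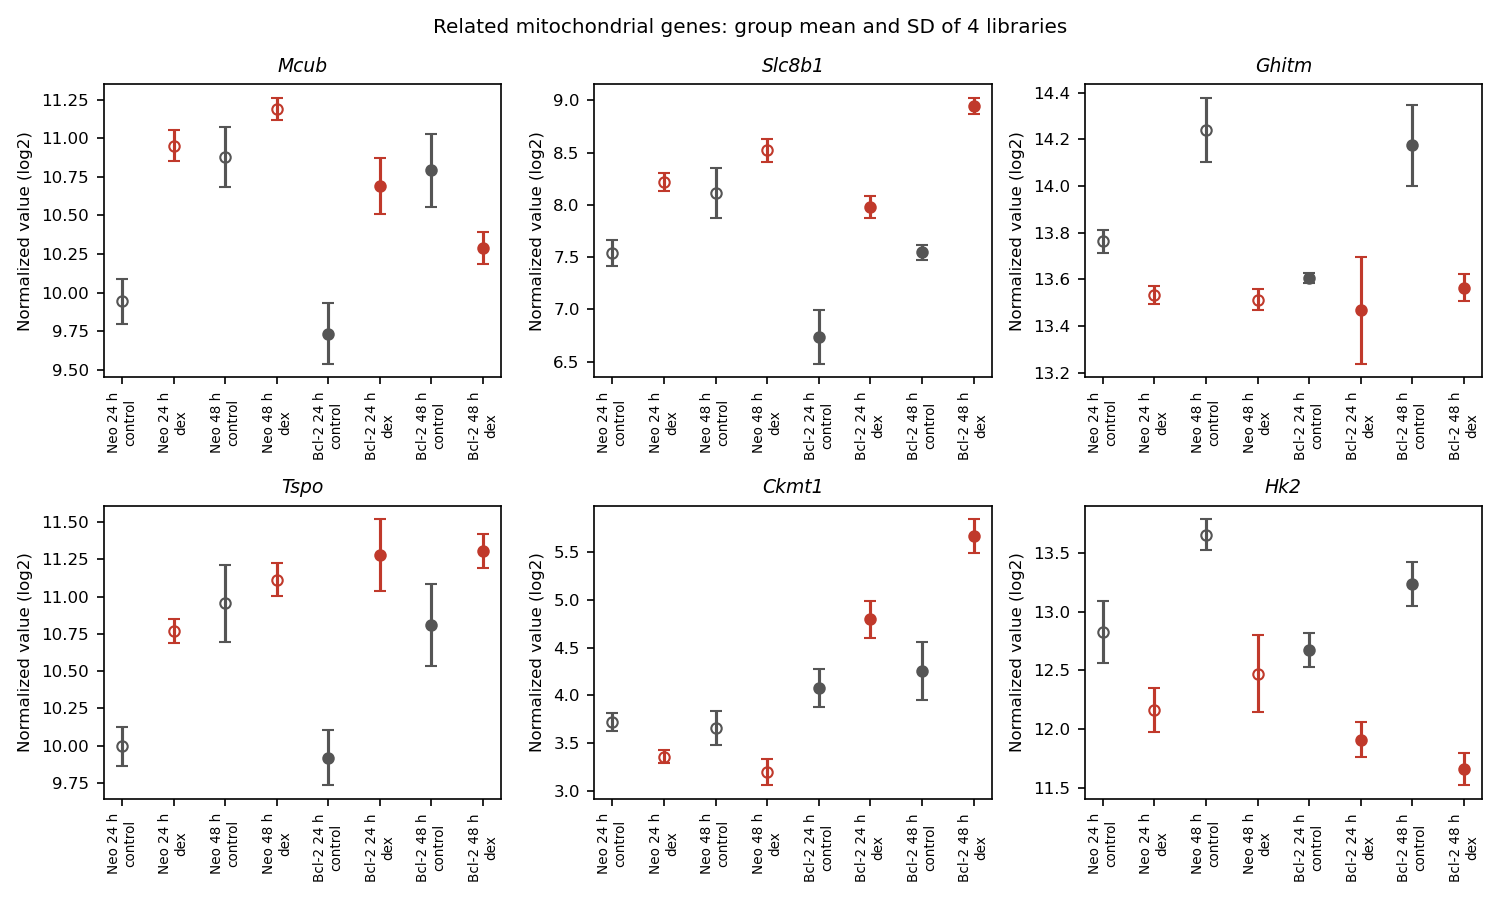
Normalized log2 value (y axis) of 6 related mitochondrial genes by group (x axis); points are means of 4 libraries and bars are SDs, open for S49 (Neo), filled for S49 (Bcl-2), grey for control and red for dex. At 48 h Mcub was lower with dex than in controls in S49 (Bcl-2) cells (10.29 against 10.79) and higher in S49 (Neo) cells (11.19 against 10.88), and Ckmt1 was higher with dex in S49 (Bcl-2) cells (5.67 against 4.26) and lower in S49 (Neo) cells (3.20 against 3.66).

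Ucp2, an inner membrane carrier abundant in lymphoid cells that moves metabolites of the citric acid cycle and is linked to lower reactive oxygen production, was the gene that rose at 24 h. At that time S49 (Neo) cells had 14.73, 14.74, 14.68 and 14.78 in controls and 15.22, 15.18, 15.26 and 15.22 with dex. S49 (Bcl-2) cells had 14.61, 14.54, 14.57 and 14.57 in controls and 14.93, 14.79, 15.18 and 14.76 with dex. Every dex library was above every control of its line. The rise was 0.49 in S49 (Neo) cells (SE 0.06, adjusted p = 1.41e-07, limma) and 0.34 in S49 (Bcl-2) cells (adjusted p = 2.10e-05), or 0.25 (adjusted p = 1.43e-05) without replicate 3. Between the lines the rise differed by -0.14 (95% interval -0.32 to 0.03), -0.23 (adjusted p = 0.00506) without that library and 0.04 after quantile normalization.

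At 48 h the Ucp2 libraries of S49 (Bcl-2) cells were at 14.64, 14.62, 14.60 and 14.60 in controls and at 14.48, 14.56, 14.38 and 14.51 with dex. Those of S49 (Neo) cells were at 14.98, 14.73, 14.88 and 14.94 in controls and at 15.00, 15.01, 15.01 and 15.09 with dex. The dex libraries thus lay below the controls in S49 (Bcl-2) cells and above them in S49 (Neo) cells, without overlap. The change was -0.13 (adjusted p = 0.0553, limma) in S49 (Bcl-2) cells, which was called without 24 h dex replicate 3 (adjusted p = 0.00526) or 48 h dex replicate 2 (-0.16, adjusted p = 0.0355) and turned to 0.13 (adjusted p = 0.0439) after quantile normalization. For S49 (Neo) cells it was 0.14 (adjusted p = 0.0482), a call lost with the replicate block (adjusted p = 0.0501), after quantile normalization (0.08, adjusted p = 0.261) and in 6 of the fits that left out 1 library in turn, with a value of 0.09 (adjusted p = 0.216) without control replicate 2. These changes differed by -0.28 (95% interval -0.46 to -0.10, adjusted p = 0.0116), and by 0.05 (adjusted p = 0.653) after quantile normalization. The change at 48 h minus that at 24 h was -0.48 in S49 (Bcl-2) cells (adjusted p = 8.70e-05) and -0.34 in S49 (Neo) cells (adjusted p = 0.00631). Dnajb13, which overlaps Ucp2, had a mean of 5.58 against 14.81 and rose in all 4 comparisons, by 0.85 to 1.26, and its part in the Ucp2 values was not tested. Of other uncoupling proteins, Slc25a27 rose by 0.57 at 24 h in S49 (Bcl-2) cells (adjusted p = 0.0013) and Slc25a14 changed by -0.15 (adjusted p = 0.216), while Ucp1 and Ucp3 were below the floor.

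Opa1, the dynamin-like GTPase that fuses inner membranes and holds cristae closed, fell in S49 (Bcl-2) cells at both times. At 24 h it lay at 12.97, 12.95, 12.89 and 12.85 in controls and at 12.56, 12.56, 11.81 and 12.51 with dex, and at 48 h at 12.77, 12.71, 12.66 and 12.59 in controls and 12.34, 12.29, 12.34 and 12.36 with dex. The groups did not overlap at either time, and replicate 3 was again far below the other dex libraries. The change was -0.55 at 24 h (SE 0.09, adjusted p = 9.04e-06, limma), or -0.37 (SE 0.04, adjusted p = 2.33e-10) without replicate 3, and -0.35 at 48 h (adjusted p = 0.00173). The S49 (Neo) change was -0.23 at 24 h (adjusted p = 0.0411), a call lost in 7 of the fits that left out 1 library of these groups (adjusted p up to 0.0876), whereas the fit of the 16 S49 (Neo) libraries gave an adjusted p of 2.18e-06. At 48 h in S49 (Neo) cells it was -0.07 (95% interval -0.26 to 0.12). The lines differed by -0.32 at 24 h (95% interval -0.60 to -0.05, adjusted p = 0.0866) and -0.28 at 48 h (95% interval -0.55 to -0.00, adjusted p = 0.0988), neither of them called. Without replicate 3 both were called, at -0.14 (adjusted p = 0.0280) and -0.28 (adjusted p = 1.20e-05), and at 24 h also without S49 (Bcl-2) dex replicate 1 (-0.39, adjusted p = 0.0327) or replicate 2 (-0.39, adjusted p = 0.0348).

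Among 15 other genes of mitochondrial fusion, fission and cristae, 9 fell and 4 rose at 24 h and 7 fell and 4 rose at 48 h in S49 (Bcl-2) cells, with medians of -0.31 and -0.22. Among them 6 fell and 3 rose at 24 h and 2 fell and 4 rose at 48 h in S49 (Neo) cells, with medians of -0.05 and 0.01. All genes had medians of -0.04, -0.01, -0.02 and -0.00 in the same order, with 35.1%, 35.2%, 25.5% and 28% called lower and 32.5%, 33.9%, 25% and 27.3% higher, so that the 2 of 15 that fell in S49 (Neo) cells at 48 h are below the share of all genes. Quantile normalization gave medians of -0.23 and -0.03 in S49 (Bcl-2) cells and -0.03 and -0.00 in S49 (Neo) cells, and without the S49 (Bcl-2) 24 h dex replicate 3 the median at 24 h in that line was -0.08, with 7 that fell and 5 that rose, where 37.3% of all genes were lower. Chchd3, a subunit of the MICOS complex that shapes cristae, fell at both times in both lines, with changes of -0.78 and -0.60 in S49 (Bcl-2) cells and -0.45 and -0.20 in S49 (Neo) cells. Immt, the core subunit of MICOS, changed by -0.26 and -0.32 in S49 (Bcl-2) cells. The change differed between the lines at 48 h by -0.40 for Chchd3 (adjusted p = 0.000204, limma) and by -0.36 for Immt (adjusted p = 2.18e-06). Mief1, which recruits the fission GTPase Drp1, changed by -0.31, -0.25, -0.30 and -0.21 in S49 (Bcl-2) cells at 24 h and 48 h and in S49 (Neo) cells at 24 h and 48 h. Fis1, an outer membrane fission factor, rose in the same comparisons by 0.46, 0.38, 0.37 and 0.43.

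When the change with dex was compared between the lines, a difference was called for Vdac1 and Vdac2 at 24 h, both lower in S49 (Bcl-2) cells, where 19.5% of all genes were called and 8.51% were lower. At 48 h it was called for Vdac1, Slc25a5, Ppif and Ucp2 (lower) and Slc25a4 (higher), where 40.8% of all genes were called, with 20.9% lower and 19.9% higher, so that 5 of 9 is close to the background. Without S49 (Bcl-2) 24 h dex replicate 3 the calls were 6 and 8 of 9, where 35.9% and 59.5% of all genes were called. After quantile normalization they were 0 and 1, where 15.4% and 36.4% of all genes were called. At an unadjusted p under 0.01 the counts with all libraries as deposited were 2 and 3, where 19.6% and 36% of all genes were. Comparison of the dex effect at 48 h with that at 24 h gave 3 calls in each line. In S49 (Bcl-2) cells 2 of them were higher and 1 lower, where 38.4% of all genes were called, with 17.1% higher and 21.3% lower, so that 3 of 9 is close to the background. S49 (Neo) cells had 1 higher and 2 lower, where 19.2% were called, with 8.72% higher and 10.5% lower. Without that replicate 6 and 7 genes were called, where 53.3% and 39.8% of all genes were. The plot of differences between the lines shows both fits.

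**Figure D4:**
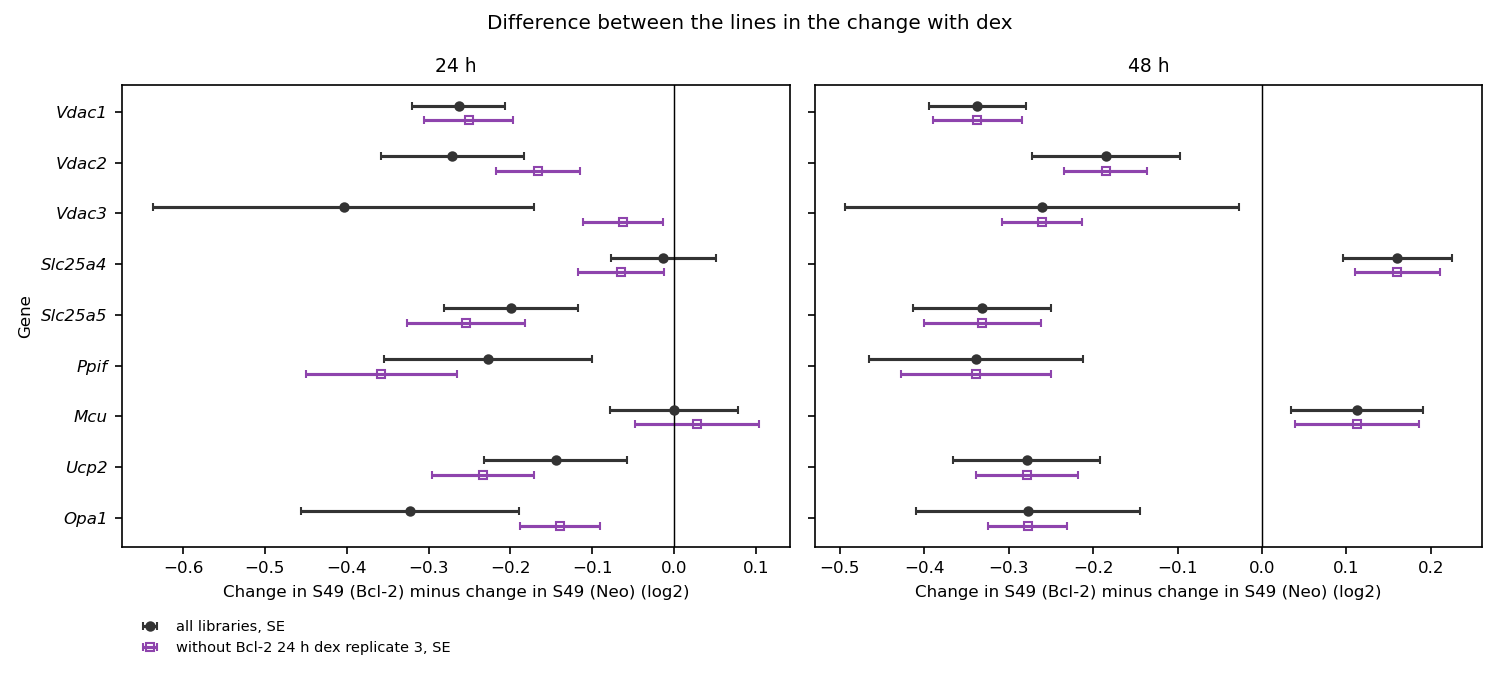
Change with dex in S49 (Bcl-2) cells minus the change in S49 (Neo) cells on the log2 scale (x axis) for each gene (y axis) at 24 h and 48 h; filled circles are the limma fit of all libraries, open squares the fit without S49 (Bcl-2) 24 h dex replicate 3, and bars are SEs. At 24 h leaving that library out moved Vdac3 from -0.40 to -0.06 and Ppif from -0.23 to -0.36, and at 48 h the estimates stayed in place with smaller SEs; under quantile normalization Ucp2 at both times and Slc25a4 and Mcu at 24 h change sign.

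The controls were compared in the same fit. Between the lines 0 of 9 genes were called at 24 h (limma), where 26.9% of all genes were called, with 12.9% higher and 14% lower. An unadjusted p under 0.05 was found for 2 of them, Slc25a4 (0.11) and Ucp2 (-0.16). The libraries did not overlap in 3 genes, 1 higher and 2 lower in S49 (Bcl-2) cells, where 21.7% and 20.6% of all genes were so. Without S49 (Bcl-2) 24 h dex replicate 3 these and Vdac3 (-0.11) and Opa1 (0.10) were called, 4 in all, where 43.4% of all genes were called. At 48 h 2 of 9 were called, Vdac1 (-0.13) and Ucp2 (-0.27, adjusted p = 0.00129), where 25.9% of all genes were called and 14.2% were lower, and 5 without that library, where 42.5% were called. At that time 3 genes lay lower in S49 (Bcl-2) controls without overlap, as did 17.2% of all genes. Ucp2 thus had the largest estimate among the 9 genes at both times, lower in S49 (Bcl-2) cells. Time in culture moved the controls too, so that changes with dex are set against a moving baseline. From 24 h to 48 h 5 genes fell and Mcu rose in S49 (Bcl-2) controls (49.5% of all genes called, 23.6% lower and 25.9% higher), and 4 fell and Mcu and Ucp2 rose in S49 (Neo) controls (46.8%, 21.7% and 25.1%). The 48 h libraries lay below those at 24 h without overlap in 5 genes in each line, as did 30% and 27.7% of all genes, and above in 2 and 1, as did 30% and 29.7%. In S49 (Bcl-2) and S49 (Neo) controls the changes were -0.58 (adjusted p = 6.79e-06) and -0.49 for Ppif, -0.41 and -0.40 for Slc25a5, -0.37 and -0.28 for Vdac2 and -0.27 and -0.23 for Slc25a4. Quantile normalization ended the calls of Slc25a4 in both lines (-0.09, adjusted p = 0.116, and -0.10, adjusted p = 0.0696), of Vdac2 in S49 (Neo) controls (-0.13, adjusted p = 0.0585) and of Opa1 in S49 (Bcl-2) controls (-0.15, adjusted p = 0.144). Mcu rose by 0.24 and 0.23. Opa1 changed by -0.23 (adjusted p = 0.0395) and -0.22 (adjusted p = 0.0534), and Vdac1 by -0.03 and 0.07, where quantile normalization gave 0.14 and 0.20. Calls lost in 6 of the fits that left out 1 library were Opa1 in S49 (Bcl-2) controls (adjusted p up to 0.117) and Ucp2 in S49 (Neo) controls (0.15, adjusted p = 0.0458, up to 0.147).

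The genes whose values were most like those of each member were found among 9149 genes by Pearson's correlation over the 32 libraries, which share the 8 group means, and are given as a description. The closest was Stc1 for Vdac1 (r = 0.978), Eef1e1 for Vdac2 (0.990), Smc5 for Vdac3 (0.980), Max for Slc25a4 (0.948), Shq1 for Slc25a5 (0.975), Shmt1 for Ppif (0.988), Adipor2 for Mcu (0.943), Galnt6 for Ucp2 (0.931) and Tomm70a for Opa1 (0.990). Tomm70a is a receptor for protein import at the mitochondrial outer membrane, and Shmt1 is a cytosolic enzyme of folate metabolism. Every correlation includes the S49 (Bcl-2) 24 h dex library that stood apart over all genes. It held the lowest value of its group for Vdac2, Vdac3 and Opa1.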

How the data were processed

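RNA of 32 libraries, 4 in each of 8 groups given by the labels, was poly(A)-enriched and sequenced. The authors trimmed reads with Trim Galore, aligned them to mm10 with STAR, counted them with featureCounts and normalized the counts with DESeq2. The deposited table holds log2 values so normalized for 24538 genes. Which transform made these log2 values is not given in the sources used here, and values from -2.38 to 20.15, nearly constant for genes at the low end, do not give back reads, so the depth is unknown and fold changes are on the deposited scale, where they may be shrunk. No pseudocount was added. In 26 rows a symbol had become a date; these stayed in the tests unnamed.

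With limma 3.58.1 in R 4.3.3, 1 mean per group was fitted over all 32 libraries, with a spread that follows the mean value. Genes entered where their mean reached 3.46, the log2 of 10 plus 1, which left 11562. Genes were called at a Benjamini-Hochberg adjusted p under 0.05 over all genes tested, in 12 comparisons. The 9 genes and the lists of related genes were chosen with earlier results of these data known. All 9 are named, and of each related list at most the 4 genes with the smallest p in any 1 comparison, so that over all comparisons a list can have more than 4, with their values also in other comparisons. Alternatives were a stricter filter (100 plus 1), no filter, quantile normalization, array weights, a replicate block, an unadjusted p under 0.01, the 16 libraries of a line, and leaving out each replicate; leaving out S49 (Bcl-2) 24 h dex replicate 3 from comparisons that do not hold it, and both settings for the lists, were added after seeing the data. Same-numbered libraries deviated together in the S49 (Bcl-2) 24 h control and dex groups (Pearson's r of 0.198 to 0.225 across genes). They also did so in the controls of both lines at 24 h (0.101 to 0.662) and 48 h (0.147 to 0.718). In these comparisons every such pair was over 0.1, so there the numbers may pair the samples. The reported fit was unpaired in all comparisons, and only the alternative with a replicate block used the numbers. No source says what a number marks. The fits were tested on simulated data. Exon positions are from GENCODE and promoter sequences from RefSeq.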

Additional observations from a re-analysis of the deposited data

Results flagged for a closer look

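Of 72 groups of 4 libraries (9 genes in 8 groups), 5 held a library whose gap to the rest was over the limit of Dixon's test, where chance gives about 1 in 20. In the S49 (Bcl-2) 24 h dex group replicate 3 was far below the rest for Vdac3 (11.39) and Opa1 (11.81); this is the library that stood apart over all genes. The others were Vdac3 in S49 (Bcl-2) 48 h control replicate 1 (13.17, low), Ucp2 in S49 (Neo) 48 h dex replicate 4 (15.09, high) and Opa1 in S49 (Neo) 48 h control replicate 2 (12.66, high).

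The change with dex differed between times or lines by the test of the difference in limma for 13 results. Between 48 h and 24 h in S49 (Bcl-2) cells these were Vdac2 (0.29), Slc25a4 (0.41) and Ucp2 (-0.48), and in S49 (Neo) cells Slc25a4 (0.24), Mcu (-0.27) and Ucp2 (-0.34). Between S49 (Bcl-2) and S49 (Neo) cells they were Vdac1 (-0.26) and Vdac2 (-0.27) at 24 h, and Vdac1 (-0.34), Slc25a4 (0.16), Slc25a5 (-0.33), Ppif (-0.34) and Ucp2 (-0.28) at 48 h. Of all genes 38.4% and 19.2% were called between the times in S49 (Bcl-2) and S49 (Neo) cells. Between the lines 19.5% of all genes were called at 24 h and 40.8% at 48 h. Most of the calls between the lines were lost after quantile normalization. All comparisons of a line at a time share that group's control libraries.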

How the results depend on the processing

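Of 1953 alternative values for the 108 pairs of gene and comparison, 57 of them called, 1734 kept direction and side of the threshold, 93 lost the call, 80 gained it and 46 changed sign, 5 of these while called in either fit. Quantile normalization changed the sign of Slc25a4 with dex at 24 h in S49 (Bcl-2) cells (0.10), of Slc25a5 (0.034) and Ucp2 (0.13) at 48 h there, of Slc25a5 at 24 h in S49 (Neo) cells (0.015), of Ppif for 48 h minus 24 h in S49 (Bcl-2) cells (-0.012), of the difference between the lines for Slc25a4 (0.13), Mcu (0.035) and Ucp2 (0.035) at 24 h and Ucp2 (0.054) at 48 h, and of the controls for Slc25a5 between lines at 24 h (-0.019) and Vdac1 over time in S49 (Bcl-2) cells (0.14); it moved the median of all genes by under 0.1 throughout. Array weights changed the sign of Mcu between the lines at 24 h (0.061) and of Slc25a5 (0.029) and Mcu (-0.061) between controls at 48 h.

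Counts of called genes moved over 1.5 times as follows. For 48 h minus 24 h array weights gave 6 in S49 (Bcl-2) and 7 in S49 (Neo) cells, the 16 S49 (Neo) libraries 7, and leaving out 1 library 3 to 6 and 3 to 7. For the lines at 24 h no filter gave 1, quantile normalization 0, array weights 6 and leaving out 1 library 1 to 6; at 48 h these were 3, 1, 9 and 3 to 8, and an unadjusted p under 0.01 gave 3. For controls between the lines quantile normalization gave 1 and array weights 4 at 24 h, against 1 and 5 at 48 h, and leaving out 1 library 0 to 4 and 1 to 5. The share of all genes called moved as well. For 48 h minus 24 h it went from 38.4% and 19.2% to 56.5% and 48.7% with array weights, 41.4% in the 16 S49 (Neo) libraries, and 34% to 53.3% and 13.7% to 39.8% leaving out 1 library. For the lines it went from 19.5% at 24 h and 40.8% at 48 h to 8.04% and 20.3% with no filter, 15.4% and 36.4% after quantile normalization, 46.4% and 63.8% with array weights, 36% at 48 h at an unadjusted p under 0.01, and 15.2% to 35.9% and 36.7% to 59.5% leaving out 1 library. For controls between the lines it went from 26.9% and 25.9% to 24.1% and 24.9%, 52% and 46.2%, and 23.1% to 43.4% and 22.7% to 42.5% under quantile normalization, array weights and leaving out 1 library. The cause was not tested. Leaving out 1 library changed the sign of uncalled values of Vdac3 (-0.38 to 0.085), Slc25a5 (-0.0026 to 0.10) and Ppif (-0.046 to 0.16) for 48 h minus 24 h in S49 (Bcl-2) cells, of Slc25a4 (-0.064 to 0.012) and Mcu (-0.028 to 0.028) between the lines at 24 h, of Vdac2 (-0.039 to 0.0030), Slc25a5 (-0.018 to 0.026) and Mcu (-0.026 to 0.012) between controls at 24 h, and of Slc25a5 (-0.051 to 0.040) and Mcu (-0.033 to 0.043) between controls at 48 h, and of Slc25a5 minus Slc25a4 with dex at 48 h in S49 (Neo) cells (-0.074 to 0.016).

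The replicate block lost the call of Ucp2 at 48 h in S49 (Neo) cells (adjusted p = 0.0501) and added Slc25a5 there (0.0319), Vdac1 for 48 h minus 24 h in S49 (Bcl-2) cells (0.0307), Slc25a5 for the same in S49 (Neo) cells (0.0288), Slc25a5 between the lines at 24 h (0.0170) and Opa1 over time in S49 (Neo) controls (0.0449). None of these comparisons was one where every same-numbered pair was over 0.1, and the block changed no other call. Outside those pairs, the lowest same-numbered r was 0.079 for control and dex at 48 h in S49 (Bcl-2) cells, and 0.053 and 0.033 at 24 h and 48 h in S49 (Neo) cells.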

Other observations

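Lists of other mitochondrial genes are given beside all genes tested, of which 35.1% and 35.2% were called lower and 32.5% and 33.9% higher with dex at 24 h and 48 h in S49 (Bcl-2) cells, and 25.5% and 28% lower and 25% and 27.3% higher in S49 (Neo) cells. Of 15 genes of the import channels, 10 fell and 1 rose at 24 h and 12 fell and 0 rose at 48 h in S49 (Bcl-2) cells, and in S49 (Neo) cells 8 fell and 1 rose and then 2 fell and 2 rose, both under the share of all genes. After quantile normalization 10 and 7 fell in S49 (Bcl-2) cells and 8 and 3 in S49 (Neo) cells, where 34.7%, 34.6%, 27% and 28.5% of all genes were lower. Without S49 (Bcl-2) 24 h dex replicate 3 the counts were 14, 12, 11 and 4, where 37.3%, 41.5%, 35.1% and 35.7% of all genes were lower. Timm17a, a core subunit of the inner membrane translocase, fell in all 4 comparisons (-1.12, -0.95, -0.87 and -0.47). Of 14 genes of mitochondrial content, 12 and 10 fell in S49 (Bcl-2) cells and 11 and 7 in S49 (Neo) cells (8, 9, 9 and 7 after quantile normalization) and 2, 3, 2 and 2 rose. Among those that fell were Cs, citrate synthase (-0.53, -0.69, -0.39 and -0.39), and Idh3a, a subunit of isocitrate dehydrogenase (-0.87, -0.84, -0.53 and -0.32). Polg, the mitochondrial DNA polymerase, rose by 0.99, 1.00, 0.73 and 0.71. Of 23 other inner membrane carriers, 3 rose and 7 fell at 24 h and 3 rose and 8 fell at 48 h in S49 (Bcl-2) cells, and 5 rose and 4 fell and then 6 rose and 4 fell in S49 (Neo) cells, counts at or below the shares of all genes, from which nothing is read. The carnitine carrier Slc25a20 rose in each (0.29, 0.39, 0.40 and 0.45). In the controls, where 23.6% of all genes in S49 (Bcl-2) and 21.7% in S49 (Neo) cells were lower at 48 h than at 24 h, the genes that fell with time were 13 and 13 of 15 for import (10 and 10 after quantile normalization), 11 and 9 of 14 for content, 11 and 10 of 23 for other carriers, 8 and 8 of 15 for fusion, fission and cristae, 5 and 5 of 10 for the permeability transition and 2 and 2 of 10 for calcium exchange.

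The balance of the ANT genes, Slc25a5 minus Slc25a4 within a library, was looked at after their values were seen and is given without a test. It was 1.39, 1.38, 1.40 and 1.30 in the S49 (Bcl-2) 48 h controls (replicates 1 to 4) and 0.93, 0.87, 0.80 and 0.75 with dex, a ratio of 2.58 in controls and 1.79 with dex on the deposited scale, which may shrink differences. In the S49 (Neo) 48 h groups it was 1.48, 1.51, 1.47 and 1.36 in controls and 1.51, 1.49, 1.41 and 1.25 with dex. The change was -0.53 in S49 (Bcl-2) cells (-0.49 after quantile normalization) and -0.04 in S49 (Neo) cells, where the sign turned (0.02) without dex replicate 4 among the fits that left out 1 library. At 24 h it was -0.17 and 0.02. The S49 (Bcl-2) libraries with 48 h of dex thus had the lowest balance of the 32 and did not overlap with any other group.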
